A study of Homo sapiens with 20 samples.

Results

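RNA was sequenced from 10 samples of SW1990, an established human pancreatic ductal adenocarcinoma cell line, of which 5 carried the yin-nourishing label and 5 the blood-activating label. They were chosen by the treatment in their labels and are 10 of the 20 samples of the series. The yin-nourishing treatment is described in the labels as nourishing yin to eliminate heat (replicates 01, 04, 05, 07 and 10), and the blood-activating treatment as activating blood and removing stasis (replicates 01, 04, 06, 08 and 09). Both are treatment principles of traditional Chinese medicine, which name the aim of a therapy and not its compounds. The series places the cells in a mouse model of pancreatic cancer and asks which transcripts differ between such treatments. The labels name no herb, dose, duration or age, no sample is labelled untreated, and the sources used here do not say whether the RNA came from tumours in mice or from cultures, nor whether each replicate is a separate animal. All 10 samples share the cell line, and no engineered allele is given. P-values therefore measure only the spread between samples of the series, all 20 of which entered the fit. A difference may belong to either treatment.

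Pancreatic ductal adenocarcinoma cells keep epithelial genes such as keratins and mucins and are sorted into classical and basal-like subtypes by the genes they express. How fast the cells divide, how they supply amino acids and how much oxygen they get are each reflected in known sets of transcripts. The label was checked against epithelial markers. KRT19, the keratin of duct epithelium, stood at 959.9 ± 33.7 CPM in the yin-nourishing samples and 825.2 ± 64.3 CPM in the blood-activating samples (SD, n = 5 each). EPCAM, an epithelial adhesion molecule, stood at 102.9 ± 14.1 CPM in the yin-nourishing samples and 86.7 ± 9.58 CPM in the blood-activating samples. Both genes were chosen after their values were seen. They were the 2 members higher in yin-nourishing among 12 duct and tumour epithelium markers, and the other 10 were lower. CPM here are normalised read counts per M counts (M for mega) after TMM scaling, which adjusts library sizes by a trimmed mean of gene ratios. Where values are listed library by library, they follow the replicate numbers given above.

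The libraries of yin-nourishing held 83.3 to 104.6 M counts, and those of blood-activating 90.4 to 110.5 M counts. They differed in the share of RN7SK, an abundant nuclear RNA that sequesters P-TEFb and so restrains transcription elongation. RN7SK took 1.81 to 2.20% of the counts in the 5 yin-nourishing libraries. In the blood-activating group it took 5.54 to 7.38% in replicates 01, 08 and 09, and 2.16 and 2.29% in replicates 04 and 06. Replicates 01, 08 and 09, with RN7SK above 4% of the counts, are called the RN7SK-high libraries below. The trait is not particular to blood-activating: of the 10 libraries outside this comparison, replicates 01 and 02 of the heat-clearing treatment also had RN7SK at 5.25 and 6.07%, and fits without the RN7SK-high libraries leave these out too. Mitochondrially encoded mRNAs made up 18.9 to 21.6% of yin-nourishing counts. In blood-activating they made up 12.9 to 15.6% in the RN7SK-high libraries and 19.0 and 22.3% in 06 and 04. RPPH1, the RNA subunit of ribonuclease P, stood at 1863 to 2555 CPM without TMM scaling in yin-nourishing and 2270 to 8791 CPM in blood-activating, with the RN7SK-high libraries at 6543 CPM or more and blood-activating 04 and 06 at 2270 and 2733 CPM. Titles end in the unexplained letter C for blood-activating 04 and 06 and for yin-nourishing 05, and in b for the other 7. Values are therefore also given without the RN7SK-high libraries, where blood-activating is represented by 04 and 06 alone. A model term for these libraries was the only other test of their part in the differences. With it 0 genes passed, as in the main fit without it, so this count cannot show their part.

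**Figure D1:**
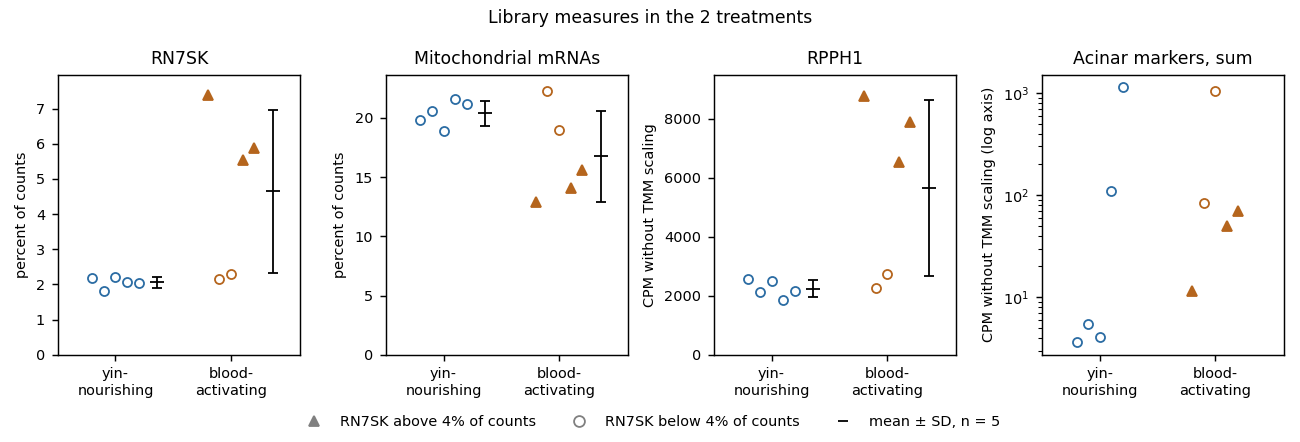
Percent of counts in RN7SK and in mitochondrially encoded mRNAs, RPPH1 in CPM without TMM scaling, and the summed CPM of 26 acinar cell genes on a log axis, in each yin-nourishing (left) and blood-activating (right) library. Bars are mean ± SD of 5 libraries, drawn in the linear panels, and triangles mark the 3 blood-activating libraries with RN7SK at 5.54 to 7.38%, above every other library shown.

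No gene passed the test between the treatments. edgeR's quasi-likelihood test, with Benjamini-Hochberg adjustment over 24790 tested rows, called 0 genes higher (0% of rows) and 0 lower (0%) in yin-nourishing, and the smallest adjusted p was 0.141, shared by 725 rows. At an unadjusted p under 0.05 there were 1919 rows higher in yin-nourishing (7.74%) and 2593 lower (10.5%), 4512 in all. This count in both directions was 1697 without the RN7SK-high libraries and 1119 with a term for them. DESeq2 called 1055 genes, 470 higher and 585 lower, and limma voom called 4172, 1859 higher and 2313 lower. edgeR itself called 361 genes, 127 higher and 234 lower, once blood-activating 04 was left out. The median log2 fold change over all rows was -0.09, and every fold change below is yin-nourishing over blood-activating on the log2 scale from edgeR.

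All 5 yin-nourishing libraries lay above all 5 blood-activating libraries in 561 rows (2.26%), and below all of them in 461 rows (1.86%). Within the blood-activating group, the RN7SK-high libraries lay wholly above or wholly below replicates 04 and 06 in 10209 of the 24790 rows (41.2%). They did so in 566 of the 1022 rows whose treatments did not overlap (55.4%). The genes described next are the 8 in each direction with the smallest unadjusted p, and none of the 16 passed: each had an adjusted p of 0.141 by edgeR. In each of the 16 the treatments did not overlap, as the choice by small p favours. In 9 of the 16 the RN7SK-high libraries stood on one side of blood-activating 04 and 06. That 04 and 06 lay outside the yin-nourishing range in all 16 follows from the lack of overlap and is no separate result.

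**Figure D2:**
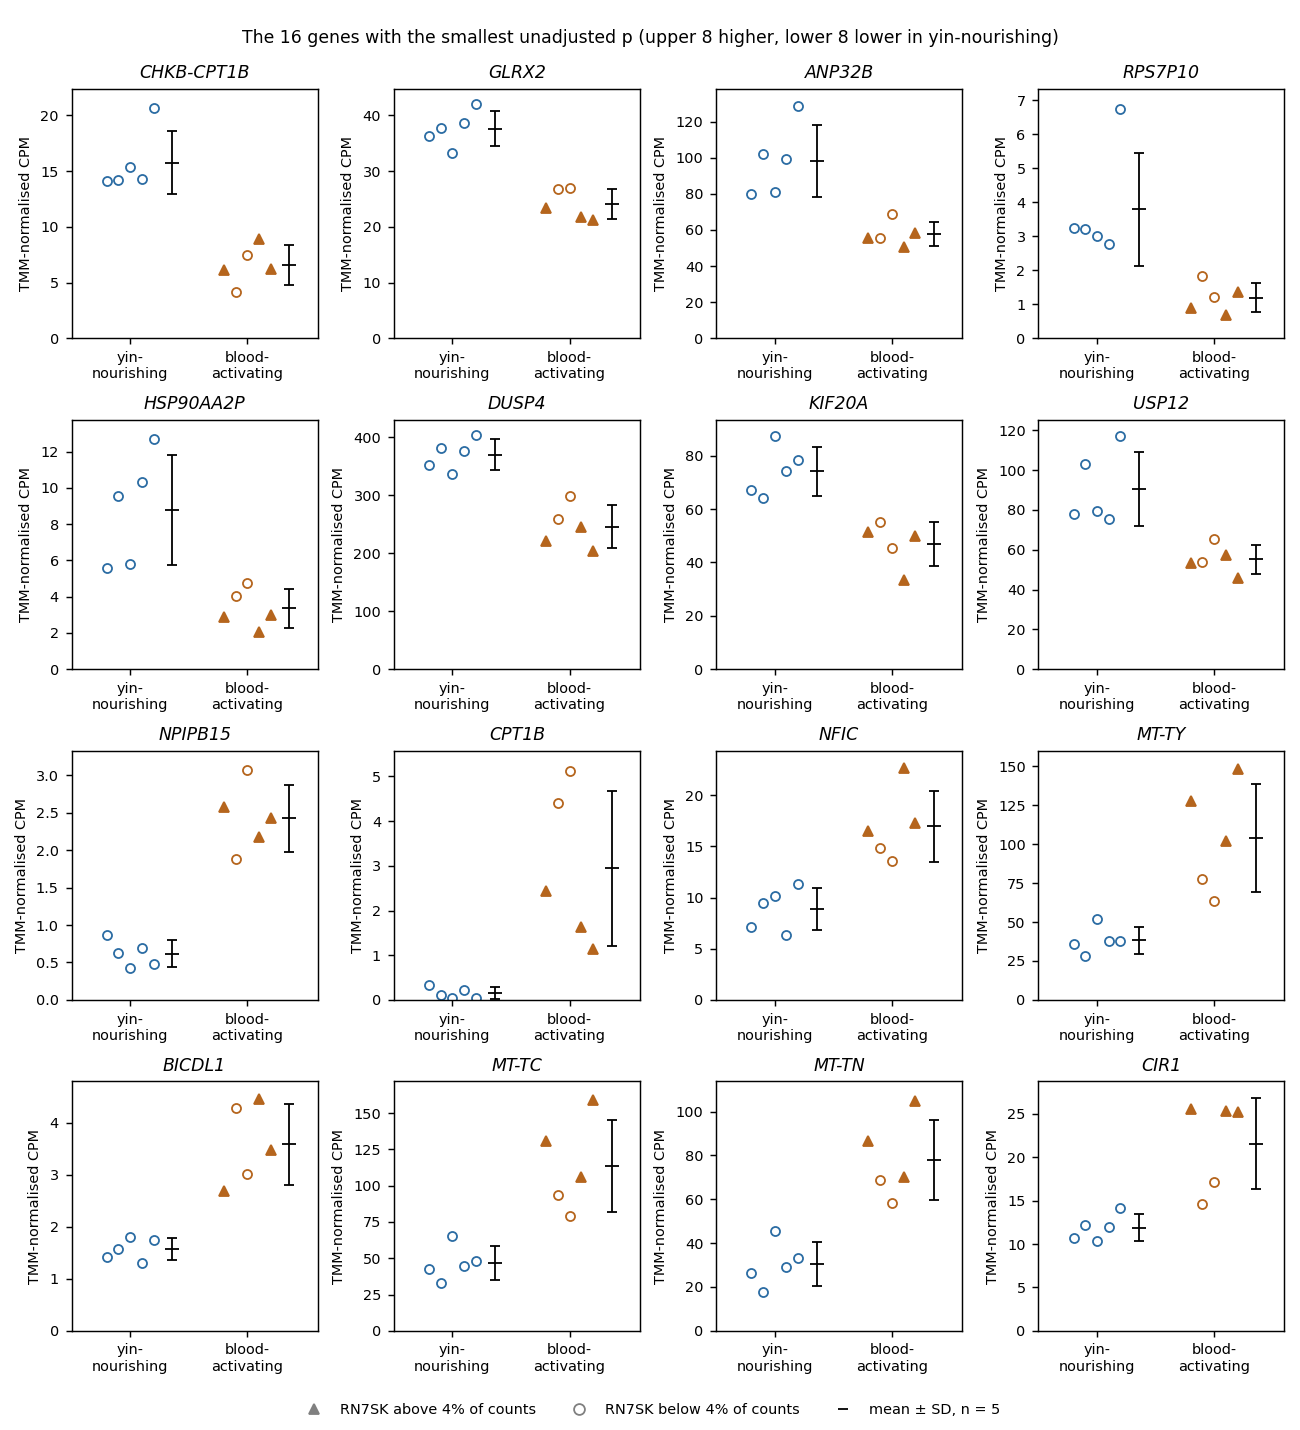
TMM-normalised CPM of the 16 genes with the smallest unadjusted p, yin-nourishing left and blood-activating right in each panel, with mean ± SD of 5 libraries; triangles are libraries with RN7SK above 4% of counts. The treatments do not overlap in any panel; the spread within blood-activating is wide for MT-TY (63.4 to 148 CPM) and narrow for GLRX2 (21.3 to 27.0 CPM).

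Genes higher in yin-nourishing included regulators of signalling, cell division and redox state. DUSP4, a nuclear phosphatase that inactivates MAP kinases and is itself induced by MAP kinase signalling, had 352, 382, 337, 377 and 404 CPM in the yin-nourishing libraries, against 221, 259, 299, 246 and 204 CPM in the blood-activating libraries. The lowest yin-nourishing library stood above the highest blood-activating library, number 06, and the fold change was 0.59 (SE 0.129). Without the RN7SK-high libraries it was 0.41. DUSP4 lies on chromosome 8 at 29333064 to 29350668 (hg38, the build of all positions here). KIF20A, a kinesin needed for cytokinesis, had 67.1, 64.2, 87.2, 74.4 and 78.2 CPM in yin-nourishing, against 51.2, 55.1, 45.5, 33.5 and 49.7 CPM in blood-activating. Blood-activating 08 was the lowest of the 10 libraries, and the fold change was 0.66 (SE 0.148), and 0.56 without the RN7SK-high libraries. The KIF20A gene (chromosome 5, 138178719 to 138187715) has 268 bases in common with BRD8 and 68 with CDC23 on the other strand.

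GLRX2, a glutaredoxin of mitochondria and nucleus that reduces glutathione-bound protein thiols, had 36.3, 37.8, 33.3, 38.7 and 42.0 CPM in yin-nourishing, against 23.3, 26.8, 27.0, 21.8 and 21.3 CPM in blood-activating. Its values varied little within each treatment, and the fold change was 0.65 (SE 0.131), and 0.49 without the RN7SK-high libraries. Its gene (chromosome 1, 193090866 to 193106114) has 912 bases in common with TROVE2, on the other strand. ANP32B, an acidic histone chaperone, had 80.0, 102, 81.0, 99.5 and 129 CPM in yin-nourishing, against 55.7, 55.6, 68.7, 50.5 and 58.5 CPM in blood-activating. Yin-nourishing 10 was the highest, and the fold change was 0.77 (SE 0.165), and 0.66 without the RN7SK-high libraries. It lies on chromosome 9 at 97983361 to 98015943, with 1106 bases shared with the antisense gene AL354726.1. USP12, a deubiquitinase, had 78.1, 103, 79.3, 75.3 and 117 CPM in yin-nourishing, against 53.3, 54.0, 65.6, 57.2 and 45.7 CPM in blood-activating. Yin-nourishing 04 and 10 stood above the other 3 of their treatment, and the fold change was 0.71 (SE 0.161), and 0.60 without the RN7SK-high libraries. It lies on chromosome 13 at 27066142 to 27171896, where the antisense gene USP12-AS1 covers 6281 of its bases. The libraries were made with a kit that keeps strand, but the strand setting of the counting is not given in the sources used here, so reads of genes that overlap on opposite strands may not have been separated.

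A pair of processed pseudogenes, which are intronless copies of mRNAs, were higher as well. RPS7P10, a copy of the ribosomal protein gene RPS7 on chromosome 13 at 21628413 to 21629015, had 3.25, 3.22, 3, 2.76 and 6.75 CPM in yin-nourishing, against 0.896, 1.82, 1.20, 0.696 and 1.36 CPM in blood-activating. The fold change was 1.67 (SE 0.361), and yin-nourishing 10 stood far above the other 4. HSP90AA2P, a copy of the chaperone gene HSP90AA1 on chromosome 11 at 27888838 to 27891033, had 5.56, 9.53, 5.81, 10.3 and 12.7 CPM in yin-nourishing, against 2.89, 4.05, 4.75, 2.03 and 3.01 CPM in blood-activating. Its fold change was 1.39 (SE 0.302). The parent genes had smaller differences: RPS7 stood at 521.2 ± 83.8 CPM in yin-nourishing and 421.3 ± 43.8 CPM in blood-activating, a fold change of 0.31 (SE 0.129). HSP90AA1 stood at 1145 ± 79.8 CPM in yin-nourishing and 1092 ± 85.7 CPM in blood-activating, a fold change of 0.07 (SE 0.102). Reads from a parent and its copy are nearly identical, so how the counting divided them is uncertain.

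The 8 genes lower in yin-nourishing included 3 mitochondrial tRNA genes, the fatty acid gene CPT1B, a transcription factor and a corepressor. NFIC, a nuclear factor I transcription factor, had 7.14, 9.43, 10.1, 6.37 and 11.3 CPM in yin-nourishing, against 16.5, 14.8, 13.6, 22.6 and 17.3 CPM in blood-activating. The RN7SK-high libraries were the highest, 06 and 04 came next, and the fold change was -0.94 (SE 0.190), and -0.68 without the RN7SK-high libraries. NFIC lies on chromosome 19 at 3314403 to 3469217. CIR1, a corepressor that acts with RBPJ at Notch target genes, had 10.7, 12.2, 10.3, 12 and 14.2 CPM in yin-nourishing, against 25.5, 14.6, 17.2, 25.3 and 25.2 CPM in blood-activating. Blood-activating 04 was close to yin-nourishing 10, and the fold change of -0.86 (SE 0.187) was -0.42 without the RN7SK-high libraries. CIR1 lies on chromosome 2 at 174348022 to 174395715.

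BICDL1, an adaptor of the dynein motor, had 1.41, 1.57, 1.80, 1.31 and 1.74 CPM in yin-nourishing, against 2.69, 4.28, 3.01, 4.45 and 3.47 CPM in blood-activating. The fold change was -1.19 (SE 0.249), close to the -1.22 without the RN7SK-high libraries, and the gene lies on chromosome 12 at 119989869 to 120094494. NPIPB15, a member of the nuclear pore complex interacting protein family, had 0.867, 0.621, 0.423, 0.700 and 0.478 CPM in yin-nourishing, against 2.57, 1.88, 3.07, 2.17 and 2.43 CPM in blood-activating. Its fold change was -1.97 (SE 0.344), and -1.995 without the RN7SK-high libraries. Its gene (chromosome 16, 74377878 to 74392080) has near-identical family copies, so its counts are uncertain.

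CPT1B and CHKB-CPT1B were the only pair among the 16 that share sequence on the same strand and differ in opposite directions. CPT1B is the muscle-type carnitine palmitoyltransferase, which loads long-chain fatty acids onto carnitine for entry into mitochondria. CHKB-CPT1B is the read-through transcript that joins the upstream choline kinase gene CHKB to CPT1B. On the minus strand of chromosome 22, CPT1B spans 50568861 to 50578465 and CHKB-CPT1B spans 50568869 to 50582965, with 9597 bases in common, so a read inside CPT1B fits both gene models. CPT1B had 0.337, 0.107, 0.0483, 0.226 and 0.0467 CPM in yin-nourishing, against 2.44, 4.41, 5.11, 1.64 and 1.13 CPM in blood-activating. Every yin-nourishing library was under 1 CPM and every blood-activating library above it, with 06 and 04 the highest, and the fold change was -4.25 (SE 0.847). CHKB-CPT1B had 14.1, 14.2, 15.4, 14.3 and 20.7 CPM in yin-nourishing, against 6.15, 4.12, 7.5, 8.9 and 6.22 CPM in blood-activating. Its fold change was 1.26 (SE 0.245).

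Of the counts given to these rows together, CPT1B held 0.224 to 2.34% in the yin-nourishing libraries and 15.3 to 51.7% in the blood-activating libraries. The sum of both rows was 15.9 ± 2.77 CPM in yin-nourishing and 9.53 ± 2.07 CPM in blood-activating, and the lowest yin-nourishing sum of 14.3 CPM lay above the highest blood-activating sum of 12.6 CPM. Without the RN7SK-high libraries the fold changes were -4.93 for CPT1B and 1.44 for CHKB-CPT1B. CHKB itself had 12.1, 4.92, 9.11, 11.2 and 5.11 CPM in yin-nourishing, against 13.0, 14.7, 17.2, 11.5 and 14.5 CPM in blood-activating, a fold change of -0.74 (SE 0.374, adjusted p = 0.304 by edgeR). Its treatments overlapped through yin-nourishing 01 and blood-activating 08.

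**Figure D3:**
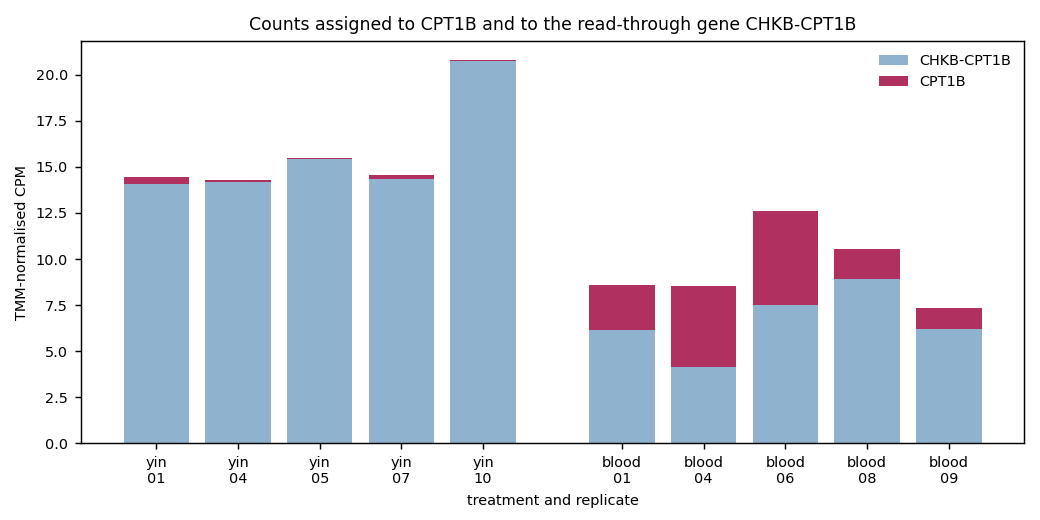
Stacked bars of TMM-normalised CPM given to CHKB-CPT1B (blue, below) and CPT1B (red, above) in each yin-nourishing (left) and blood-activating (right) library. CPT1B is at most 2.34% of a yin-nourishing bar and at least 15.3% of a blood-activating bar, and every yin-nourishing bar is taller than every blood-activating bar.

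Mitochondrial tRNA genes made up 3 of the 8 lower genes, and they lie side by side. Mitochondrial DNA is transcribed from both strands into long precursors, and the tRNAs between the coding genes mark where these are cut. MT-TA, MT-TN, MT-TC and MT-TY, the tRNAs for alanine, asparagine, cysteine and tyrosine, follow each other on the minus strand, and MT-TC and MT-TY share 1 base. They are printed because they are neighbours in the genome and the 3 genes lower in yin-nourishing are among them; MT-TA and this grouping were chosen after the values were seen. The sequences are from the GENCODE release 29 transcripts on hg38, 5′ to 3′, with the anticodon in capitals and without the CCA end that is added after transcription.
MT-TA (chrM:5587-5655, minus strand): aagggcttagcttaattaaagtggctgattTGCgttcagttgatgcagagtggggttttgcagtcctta
MT-TN (chrM:5657-5729, minus strand): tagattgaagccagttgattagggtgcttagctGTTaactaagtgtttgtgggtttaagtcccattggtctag
MT-TC (chrM:5761-5826, minus strand): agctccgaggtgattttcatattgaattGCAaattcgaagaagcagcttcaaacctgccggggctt
MT-TY (chrM:5826-5891, minus strand): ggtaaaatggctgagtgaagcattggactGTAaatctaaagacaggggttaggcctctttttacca

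MT-TY had 35.9, 28.2, 52.1, 37.7 and 37.7 CPM in yin-nourishing, against 128, 77.9, 63.4, 102 and 148 CPM in blood-activating. MT-TC had 42.7, 32.9, 65.0, 44.9 and 47.9 CPM in yin-nourishing, against 131, 93.8, 78.8, 106 and 159 CPM in blood-activating. MT-TN had 26.4, 17.8, 45.7, 29.2 and 33.0 CPM in yin-nourishing, against 86.4, 68.7, 58.4, 70.0 and 105 CPM in blood-activating. In all 3 genes yin-nourishing 05 was the highest and 04 the lowest of its treatment, and in blood-activating the order was 09, 01, 08, 04 and 06 from high to low. The fold changes were -1.44 for MT-TY (SE 0.288), -1.28 for MT-TC (SE 0.265) and -1.35 for MT-TN (SE 0.282). The RN7SK-high libraries were the highest in each, and without them the fold changes were -0.88, -0.89 and -1.06 in the same order of genes. MT-TA had 5.45, 3.01, 9.89, 10.3 and 18.5 CPM in yin-nourishing, against 14.8, 18.4, 20.1, 16 and 19.3 CPM in blood-activating. Yin-nourishing 10 lay inside the blood-activating range, and the fold change was -0.91 (SE 0.365, adjusted p = 0.187 by edgeR).

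Over all 22 mitochondrial tRNA genes, 13 had a fold change below 0 and 9 above, with a median of -0.10, against -0.09 over all rows. Only MT-TN, MT-TC and MT-TY had treatments that did not overlap, each with yin-nourishing below, which held for 1.86% of all rows. The 13 mitochondrially encoded mRNAs leaned the other way: 11 were higher and 2 lower in yin-nourishing, with a median of 0.24. Among them MT-ATP8, a subunit of ATP synthase, had 11200, 13800, 8970, 14300 and 17000 CPM in yin-nourishing, against 4740, 10400, 9100, 4990 and 6050 CPM in blood-activating. MT-CO2, a subunit of cytochrome oxidase, stood at 35430 ± 3426 CPM in yin-nourishing and 22750 ± 9264 CPM in blood-activating. Both were low in the RN7SK-high libraries. MT-ATP8 overlapped between treatments through blood-activating 04 and 06, and MT-CO2 through 04. Without the RN7SK-high libraries the median over the 13 was 0.03. Each tRNA gene is shorter than 80 bases, the labels do not say which fragment lengths were kept, and nuclear copies of mitochondrial DNA can take such reads, so tRNA counts are less certain than mRNA counts.

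**Figure D4:**
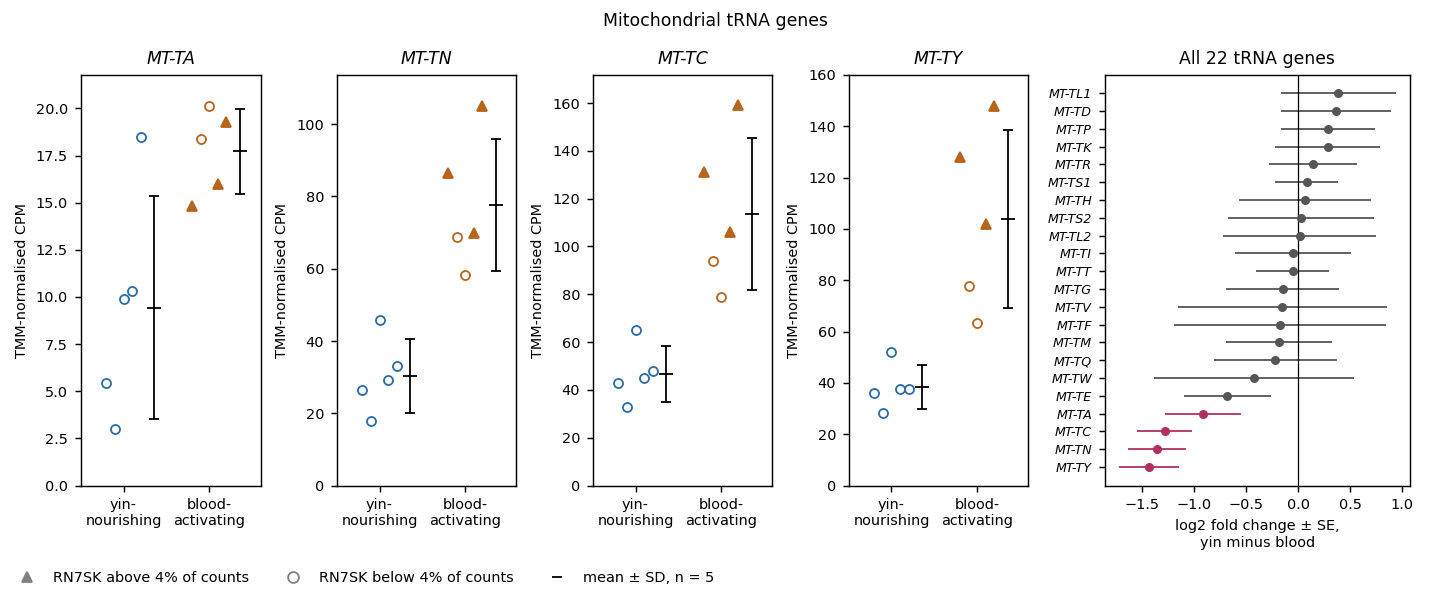
TMM-normalised CPM of 4 neighbouring mitochondrial tRNA genes by library, yin-nourishing left and blood-activating right (mean ± SD, triangles are libraries with RN7SK above 4% of counts), and at far right the log2 fold change ± SE of all 22 tRNA genes, yin-nourishing minus blood-activating. The 4 neighbours, in red, have the 4 lowest fold changes, -0.91 to -1.44, and the other 18 lie between -0.68 and 0.39.

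Gene groups are described by counts, since none of their members passed the test, and are read beside the 56.4% of all rows that had a fold change below 0. G2/M genes, which drive mitosis, leaned toward yin-nourishing in 27 of 34 tested members, with a median fold change of 0.29 against -0.09 over all rows. At an unadjusted p under 0.05 by edgeR, 15 of the 34 were higher (44.1%, against 7.74% of all rows) and 0 were lower. Treatments did not overlap in 5 members, KIF20A, CCNB2, CENPE, NUSAP1 and TTK, each with yin-nourishing above (14.7%, against 2.26% of all rows). CCNB2, a mitotic cyclin, had 49.5, 47.4, 66.5, 53.6 and 49.9 CPM in yin-nourishing, against 35.6, 39.7, 34.0, 20.7 and 32.1 CPM in blood-activating. Its fold change was 0.72 (SE 0.168, adjusted p = 0.141 by edgeR). CENPE, the kinetochore motor, stood at 64.4 ± 9.40 CPM in yin-nourishing and 45.1 ± 9.63 CPM in blood-activating. NUSAP1, a spindle protein, stood at 109.8 ± 9.71 CPM in yin-nourishing and 78.3 ± 12.4 CPM in blood-activating, and the spindle checkpoint kinase TTK at 54.7 ± 2.86 CPM in yin-nourishing and 39.4 ± 9.39 CPM in blood-activating. The NUSAP1 gene has 48050 bases in common with AC087721.2 on the same strand, so how the counting divided their reads is uncertain. Members whose treatments overlapped included ECT2, the exchange factor that starts the cytokinetic furrow, at 199.6 ± 20.03 CPM in yin-nourishing and 145.6 ± 29.5 CPM in blood-activating, and the spindle assembly factor TPX2 at 317.7 ± 60.3 CPM in yin-nourishing and 225.6 ± 46.3 CPM in blood-activating.

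The G2/M genes were lowest in blood-activating 08 and highest in yin-nourishing 05. The median of their log2 levels, centred on each gene, was -0.69 in blood-activating 08 and between -0.14 and 0.05 in the other 4 blood-activating libraries. In the yin-nourishing libraries it was 0.42 in 05 and between 0.02 and 0.14 in the other 4. Leaving out yin-nourishing 05 gave a median fold change of 0.16 and leaving out blood-activating 08 gave 0.17. With the RN7SK-high libraries left out, 30 of 34 members were above 0, with a median of 0.21. DNA replication genes, which act in S phase, did not share this lean with all libraries: 16 of 34 were higher and 18 lower, with a median of -0.01. Without the RN7SK-high libraries 14 of 34 were higher (median -0.03), and with a term for them 22 of 34 (median 0.05). The replicative helicase subunit MCM7 stood at 30.2 ± 3.52 CPM in yin-nourishing and 46.0 ± 12.9 CPM in blood-activating without overlap, and the origin licensing factor CDT1 at 6.73 ± 1.68 CPM in yin-nourishing and 11.4 ± 2.37 CPM in blood-activating. Both were highest in the RN7SK-high libraries. Without these the fold change went from -0.61 to -0.26 for MCM7 and from -0.75 to -0.49 for CDT1. Replication-dependent histone genes were lower in 18 of 23 (median -0.41), without the RN7SK-high libraries in 12 of 23 (median -0.03), and with a term for them in 7 of 23 (median 0.10).

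Genes of amino acid supply and of the integrated stress response were lower in yin-nourishing in most members of 3 lists, while the aminoacyl-tRNA synthetases were not. In this response phosphorylated eIF2alpha slows translation and ATF4 switches on amino acid genes. Of the enzymes of serine synthesis and 1-carbon metabolism, 11 of 13 were lower, with a median of -0.41. PHGDH, the first enzyme of serine synthesis, had 4.86, 4.90, 4.38, 4.45 and 3.97 CPM in yin-nourishing, against 8.57, 7.18, 7.44, 8.06 and 8.11 CPM in blood-activating. The treatments did not overlap and the fold change was -0.80 (SE 0.282, adjusted p = 0.152 by edgeR), and -0.69 without the RN7SK-high libraries. SHMT2, the mitochondrial serine hydroxymethyltransferase, had 27.6, 22.6, 31.1, 22.1 and 26.4 CPM in yin-nourishing, against 65.6, 25.1, 28.2, 39.0 and 40.3 CPM in blood-activating. Blood-activating 04 and 06 lay inside the yin-nourishing range, and the fold change of -0.61 (SE 0.223) was -0.03 without the RN7SK-high libraries. PCK2, the mitochondrial enzyme that makes phosphoenolpyruvate, had 4.20, 1.89, 3.08, 2.22 and 2.03 CPM in yin-nourishing, against 7.48, 4.33, 3.55, 4.34 and 4.34 CPM in blood-activating.

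Amino acid transporters were lower in 9 of 11, with a median of -0.39. The glutamine transporter SLC1A5 stood at 44.5 ± 8.22 CPM in yin-nourishing and 74.9 ± 21.2 CPM in blood-activating, and the leucine transporter SLC7A5 at 72.4 ± 7.704 CPM in yin-nourishing and 99.1 ± 16.9 CPM in blood-activating. For SLC1A5 the fold change went from -0.75 to -0.24 without the RN7SK-high libraries, and for SLC7A5 from -0.45 to -0.33. Leaving out blood-activating 06 gave a median of -0.13 over the transporters. Regulators of the integrated stress response were lower in 12 of 17 (median -0.39). PPP1R15A, which directs the phosphatase that reverses eIF2alpha phosphorylation, had 28.5, 31.0, 22.3, 21.6 and 33.9 CPM in yin-nourishing, against 38.2, 26.8, 48.8, 66.6 and 50.3 CPM in blood-activating. The treatments overlapped through blood-activating 04, and the fold change was -0.75 (SE 0.208, adjusted p = 0.141 by edgeR). GDF15, a stress-induced cytokine, had 1.48, 1.22, 2.05, 0.937 and 2.06 CPM in yin-nourishing, against 5.68, 1.89, 2.02, 5.86 and 5.53 CPM in blood-activating. Blood-activating 04 and 06 were at the yin-nourishing level. ATF5, a transcription factor of this response, stood at 5.42 ± 0.212 CPM in yin-nourishing and 7.62 ± 1.52 CPM in blood-activating without overlap, and CEBPB, another, at 33.6 ± 3.49 CPM in yin-nourishing and 45.5 ± 8.92 CPM in blood-activating. Leaving out the RN7SK-high libraries moved the fold change from -0.49 to -0.165 for ATF5 and from -0.44 to -0.15 for CEBPB. The aminoacyl-tRNA synthetases, which charge tRNAs and are partly under ATF4, were higher in 9 of 17 (median 0.07). At an unadjusted p under 0.05 by edgeR, 2 of them were higher (11.8%, against 7.74% of all rows) and 0 lower (0%, against 10.5% of all rows). Without the RN7SK-high libraries the medians were -0.22 for the serine and 1-carbon enzymes, -0.21 for the transporters and -0.17 for the regulators, against -0.03 over all rows.

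Targets of hypoxia, which oxygen lack induces through HIF transcription factors, were lower in 21 of 27 members (median -0.22). PFKFB3, which makes the activator of phosphofructokinase, had 14.9, 19.5, 7.65, 15.0 and 17.6 CPM in yin-nourishing, against 15.8, 18.6, 35.9, 41.3 and 36.4 CPM in blood-activating. Blood-activating 01 and 04 lay inside the yin-nourishing range and the other 3 well above it, a split that does not follow RN7SK, and the fold change was -0.99 (SE 0.246, adjusted p = 0.141 by edgeR). VEGFA, the angiogenic growth factor, had 44.5, 51.2, 29.7, 36.2 and 40.4 CPM in yin-nourishing, against 48.8, 41.5, 66.3, 108 and 78.8 CPM in blood-activating, with the same pair of blood-activating libraries inside the yin-nourishing range. SLC2A1, the glucose transporter, had 249, 310, 196, 173 and 296 CPM in yin-nourishing, against 312, 209, 338, 555 and 455 CPM in blood-activating. PFKFB4, a relative of PFKFB3, stood at 14.4 ± 4.38 CPM in yin-nourishing and 21.6 ± 3.42 CPM in blood-activating. Without the RN7SK-high libraries 20 of 27 hypoxia targets were lower (median -0.16), and leaving out blood-activating 08 gave a median of -0.10. Glycolysis genes were lower in 14 of 21 (median -0.15), and in 14 of 21 without the RN7SK-high libraries (median -0.07). Among them the aldolase ALDOC stood at 17.1 ± 2.68 CPM in yin-nourishing and 27.0 ± 6.11 CPM in blood-activating, and the phosphofructokinase PFKL at 23.0 ± 4.37 CPM in yin-nourishing and 41.5 ± 14.0 CPM in blood-activating. PFKL was highest in the RN7SK-high libraries. Without them the fold change went from -0.85 to -0.21 for PFKL and from -0.66 to -0.51 for ALDOC.

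Notch receptors, ligands and targets, which signal between touching cells, were lower in 18 of 20 members, with a median of -0.60. At an unadjusted p under 0.05 by edgeR, 8 of the 20 were lower (40.0%, against 10.5% of all rows). HES4, a Notch-responsive repressor, had 6.90, 4.83, 4.51, 3.39 and 4.91 CPM in yin-nourishing, against 14.3, 6.27, 5.95, 12.8 and 12 CPM in blood-activating. The receptor NOTCH3 had 92.7, 81.2, 51.7, 61.9 and 72.1 CPM in yin-nourishing, against 85.3, 95.1, 84.4, 194 and 147 CPM in blood-activating. HES1, the canonical Notch target, stood at 18.7 ± 2.22 CPM in yin-nourishing and 26.2 ± 4.80 CPM in blood-activating. No member separated the treatments fully, and HES1 and HES4 were highest in the RN7SK-high libraries. Without those libraries 17 of 20 members were below 0, with a median of -0.11.

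NF-kB subunits and inhibitors were lower in 11 of 16 (median -0.23). RELB, a subunit of the noncanonical pathway, had 2.77, 4.90, 2.37, 2.66 and 2.18 CPM in yin-nourishing, against 10.2, 3.47, 3.70, 5.64 and 8.12 CPM in blood-activating. RELA stood at 49.7 ± 6.90 CPM in yin-nourishing and 72.6 ± 18.0 CPM in blood-activating, NFKB2 at 10.5 ± 1.19 CPM in yin-nourishing and 14.0 ± 2.53 CPM in blood-activating, and the co-regulator BCL3 at 17.0 ± 1.73 CPM in yin-nourishing and 21.3 ± 1.93 CPM in blood-activating. All 4 were highest in the RN7SK-high libraries, without which the median was -0.11. Cytokines and chemokines were lower in 15 of 20 (median -0.27), among them LIF at 69.4 ± 7.28 CPM in yin-nourishing and 98.9 ± 20.8 CPM in blood-activating. Immediate early genes, which growth signals switch on within minutes, were lower in 23 of 30 (median -0.28). The transcription factor KLF4 had 18.5, 17.5, 16.5, 12.7 and 18.1 CPM in yin-nourishing, against 21.4, 18.5, 24.8, 37.2 and 34.6 CPM in blood-activating. NR4A1, an orphan nuclear receptor, stood at 8.77 ± 1.17 CPM in yin-nourishing and 13.8 ± 3.57 CPM in blood-activating. DUSP4, given above, is a member of this list and lay in the other direction. The medians without the RN7SK-high libraries were -0.06 for the cytokines and -0.04 for the immediate early genes.

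The cornified envelope, mucin and classical subtype lists were lower in yin-nourishing in most members, and their medians were not closer to 0 without the RN7SK-high libraries. At an unadjusted p under 0.05 by edgeR, 3 of 22 cornified envelope genes (13.6%) and 1 of 14 mucins (7.14%) were lower, near the 10.5% of all rows. Cornified envelope genes, which stratified epithelium uses to build its outer layer, were lower in 19 of 22 (median -0.56, and -0.83 without those libraries). The median of their log2 levels, centred on each gene, was 0.70 in blood-activating 04, the highest library, and 0.19 in 06. In blood-activating 01, 08 and 09 it was -0.40, 0.075 and 0.29. Leaving out 1 library of either treatment at a time gave medians of -0.75 to -0.45. PI3, the elastase inhibitor elafin, had 125, 120, 67.6, 145 and 139 CPM in yin-nourishing, against 210, 251, 164, 236 and 260 CPM in blood-activating. The treatments did not overlap and the fold change was -0.91 (SE 0.315, adjusted p = 0.153 by edgeR). SPRR1A, a cornified envelope precursor, had 6.67, 5.10, 3.08, 6.03 and 4.61 CPM in yin-nourishing, against 4.39, 17.2, 8.31, 10.5 and 12.2 CPM in blood-activating, and overlapped through blood-activating 01. KRT13, a keratin of stratified epithelium, stood at 174.4 ± 46.6 CPM in yin-nourishing and 275.3 ± 114 CPM in blood-activating. The related SPRR1B went the other way, at 1241 ± 443 CPM in yin-nourishing and 700.3 ± 245 CPM in blood-activating, a fold change of 0.83 (SE 0.363, adjusted p = 0.233 by edgeR).

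Mucins, the glycoproteins of the mucous layer, were lower in 12 of 14 (median -0.43, and -0.54 without the RN7SK-high libraries). The membrane mucin MUC1 had 150, 142, 188, 164 and 150 CPM in yin-nourishing, against 298, 177, 141, 337 and 296 CPM in blood-activating. The RN7SK-high libraries were the highest, and without them its fold change of -0.65 (SE 0.245) was 0.00. The secreted mucin MUC5B had 1490, 847, 1310, 1430 and 897 CPM in yin-nourishing, against 1070, 2690, 1200, 2140 and 1790 CPM in blood-activating. MUC2, another secreted mucin, had 54.2, 29.6, 38.5, 52.7 and 37.5 CPM in yin-nourishing, against 36.8, 133, 46.2, 77.3 and 87.1 CPM in blood-activating. Both had their highest value in blood-activating 04, and leaving that library out gave a median of -0.23 over the mucins. MUC5AC, the gastric mucin, was among the 2 members with a fold change above 0, at 0.20 (SE 0.343), and was at -0.31 without the RN7SK-high libraries. Genes of the classical tumour subtype were lower in 18 of 25 (median -0.30, and -0.41 without the RN7SK-high libraries), 0 of them at an unadjusted p under 0.05 by edgeR, and leaving out blood-activating 04 gave a median of -0.12.

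Genes of the basal-like subtype were lower in 18 of 28 (median -0.11), near the -0.09 of all rows, and in 14 of 28 without the RN7SK-high libraries (median 0.02). KRT5, a basal keratin, had 550, 446, 516, 496 and 377 CPM in yin-nourishing, against 584, 664, 616, 808 and 1080 CPM in blood-activating, without overlap. KRT17 stood at 415.5 ± 77.2 CPM in yin-nourishing and 714.8 ± 278 CPM in blood-activating, and FAM83A, an oncogene of EGFR signalling, at 427.5 ± 90.2 CPM in yin-nourishing and 739.5 ± 324 CPM in blood-activating. Without the RN7SK-high libraries the fold change went from -0.78 to -0.35 for KRT17 and from -0.79 to -0.06 for FAM83A. Of 12 duct and tumour epithelium markers 10 were lower (median -0.43), and 5 without the RN7SK-high libraries (median 0.01). ELF3, an epithelial transcription factor, had 53.6, 41.1, 37.3, 56.2 and 38.5 CPM in yin-nourishing, against 61.9, 76.3, 63.1, 133 and 104 CPM in blood-activating, without overlap. The tight junction protein CLDN4 stood at 82.4 ± 10.2 CPM in yin-nourishing and 131.7 ± 40.6 CPM in blood-activating, E-cadherin CDH1 at 275.7 ± 38.3 CPM in yin-nourishing and 369.4 ± 94.1 CPM in blood-activating, and the keratin KRT7 at 129.9 ± 39.2 CPM in yin-nourishing and 203.5 ± 90.8 CPM in blood-activating. All 3 were highest in the RN7SK-high libraries, and without these CDH1 had a fold change of 0.01 and KRT7 of 0.19. KRT19, given above, was higher in every yin-nourishing library than in any blood-activating library, with a fold change of 0.22 (SE 0.0945), and 0.23 without the RN7SK-high libraries.

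Of the cytosolic ribosomal protein genes 51 of 79 were lower (median -0.17), and 52 of 79 higher without the RN7SK-high libraries (median 0.10). RPL29 showed this most plainly among those named, at 149, 160, 160, 135 and 171 CPM in yin-nourishing, against 791, 156, 198, 807 and 750 CPM in blood-activating, where only the RN7SK-high libraries were high. RPL37 had 53, 40.7, 54.6, 41.0 and 47.4 CPM in yin-nourishing, against 129, 59.8, 72.9, 158 and 150 CPM in blood-activating, without overlap. RPS26 lay the other way without overlap, at 63.1 ± 4.50 CPM in yin-nourishing and 49.5 ± 7.47 CPM in blood-activating. Ribosomal protein genes have many processed copies, so the division of their reads is uncertain. Nuclear-encoded genes of the respiratory chain and ATP synthase were lower in 28 of 43 (median -0.13), in 24 of 43 without the RN7SK-high libraries (median -0.01), and in 17 of 43 with a term for them (median 0.03). COX5B, a cytochrome oxidase subunit, had 10.9, 7.42, 7.94, 6.01 and 7.14 CPM in yin-nourishing, against 27.3, 10.9, 12.5, 21.1 and 32.9 CPM in blood-activating. Its treatments met at 10.9 CPM to the digits given and did not overlap. ATP5F1B, the catalytic ATP synthase subunit, stood at 97.2 ± 14.5 CPM in yin-nourishing and 150.9 ± 31.5 CPM in blood-activating, while COX7A2 stood at 64.4 ± 8.35 CPM in yin-nourishing and 46.4 ± 5.96 CPM in blood-activating and the complex I subunit NDUFV2 at 46.3 ± 4.15 CPM in yin-nourishing and 28.3 ± 8.39 CPM in blood-activating. These 3 genes also did not overlap, and in all 4 the RN7SK-high libraries lay on the far side of blood-activating 04 and 06 from yin-nourishing.

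Chaperone genes were mixed. Cytosolic heat shock proteins were higher in 9 of 16 (median 0.08) and genes of the unfolded protein response of the endoplasmic reticulum in 11 of 22 (median 0.00). HSPA1A, an inducible HSP70, had 178, 210, 190, 268 and 306 CPM in yin-nourishing, against 67.2, 139, 141, 77.6 and 64.6 CPM in blood-activating, without overlap. Its fold change was 1.24 (SE 0.310, adjusted p = 0.141 by edgeR), and 0.73 without the RN7SK-high libraries. HSPA1B, its near-identical copy with which reads cannot be fully divided, stood at 84.7 ± 9.81 CPM in yin-nourishing and 67.0 ± 5.98 CPM in blood-activating. HSP90AB1 stood at 1068 ± 43.5 CPM in yin-nourishing and 819.5 ± 145 CPM in blood-activating. In the endoplasmic reticulum the disulphide isomerase PDIA6 stood at 429.1 ± 44.2 CPM in yin-nourishing and 261.0 ± 91.7 CPM in blood-activating, and HERPUD1, a factor of protein degradation there, at 44.2 ± 3.23 CPM in yin-nourishing and 37.3 ± 3.12 CPM in blood-activating. Both separated the treatments without overlap. NRF2 targets, the antioxidant genes, were lower in 17 of 22 (median -0.23, and -0.03 without the RN7SK-high libraries), with the sulphiredoxin SRXN1 at 18.1 ± 2.32 CPM in yin-nourishing and 28.2 ± 8.27 CPM in blood-activating and the transketolase TKT at 53.2 ± 11.4 CPM in yin-nourishing and 79.1 ± 17.6 CPM in blood-activating.

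Interferon-stimulated genes were nearly balanced, 14 higher and 16 lower (median -0.04), but 26 of 30 were lower without the RN7SK-high libraries (median -0.20), and leaving out blood-activating 04 gave a median of 0.16. BST2, the tethering protein that holds viruses at the cell surface, had 24.5, 16.3, 22.6, 18.2 and 13.4 CPM in yin-nourishing, against 50.3, 38.2, 20.1, 26.0 and 38.0 CPM in blood-activating. ISG15, a ubiquitin-like modifier, stood at 27.9 ± 9.18 CPM in yin-nourishing and 53.6 ± 25.1 CPM in blood-activating. Genes of MHC class I presentation were lower in 12 of 15 (median -0.35, and -0.13 without the RN7SK-high libraries). HLA-B had 80.0, 53.3, 70.1, 92.0 and 64.7 CPM in yin-nourishing, against 256, 112, 59.5, 97.6 and 102 CPM in blood-activating, with blood-activating 01 far above the rest. HLA-E stood at 14.9 ± 4.77 CPM in yin-nourishing and 22.6 ± 3.39 CPM in blood-activating. Leaving out blood-activating 01 gave a median of -0.04 over the class I genes.

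TGF-beta pathway genes and targets were higher in 15 of 24 (median 0.05), among them the receptor TGFBR2 at 188.6 ± 15.1 CPM in yin-nourishing and 155.5 ± 10.2 CPM in blood-activating and the corepressor TGIF1 at 28.9 ± 2.23 CPM in yin-nourishing and 21.8 ± 1.92 CPM in blood-activating, both without overlap. PLAU, the urokinase, which activates plasminogen, had 30.3, 25.2, 43.5, 26.5 and 26.2 CPM in yin-nourishing, against 84.0, 26.1, 42.4, 70.7 and 86.2 CPM in blood-activating. It was highest in the RN7SK-high libraries of blood-activating. The coagulation and fibrinolysis list, relevant to the name of the blood-activating treatment, was lower in 13 of 24 (median -0.04), and in 10 of 24 without the RN7SK-high libraries (median 0.06). Matrix metalloproteinases and their inhibitors were lower in 13 of 24 (median -0.10), and the membrane-type protease MMP15 stood at 12.3 ± 3.04 CPM in yin-nourishing and 24.6 ± 7.55 CPM in blood-activating without overlap. Apoptosis regulators were lower in 15 of 27 (median -0.08), near the 56.4% of all rows, and in 11 of 27 without the RN7SK-high libraries (median 0.05). Of p53 targets 11 of 18 were lower (median -0.09), and 9 of 18 without the RN7SK-high libraries (median -0.01). Among them FDXR, a mitochondrial reductase, stood at 5.90 ± 1.03 CPM in yin-nourishing and 9.69 ± 1.604 CPM in blood-activating without overlap.

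**Figure D5:**
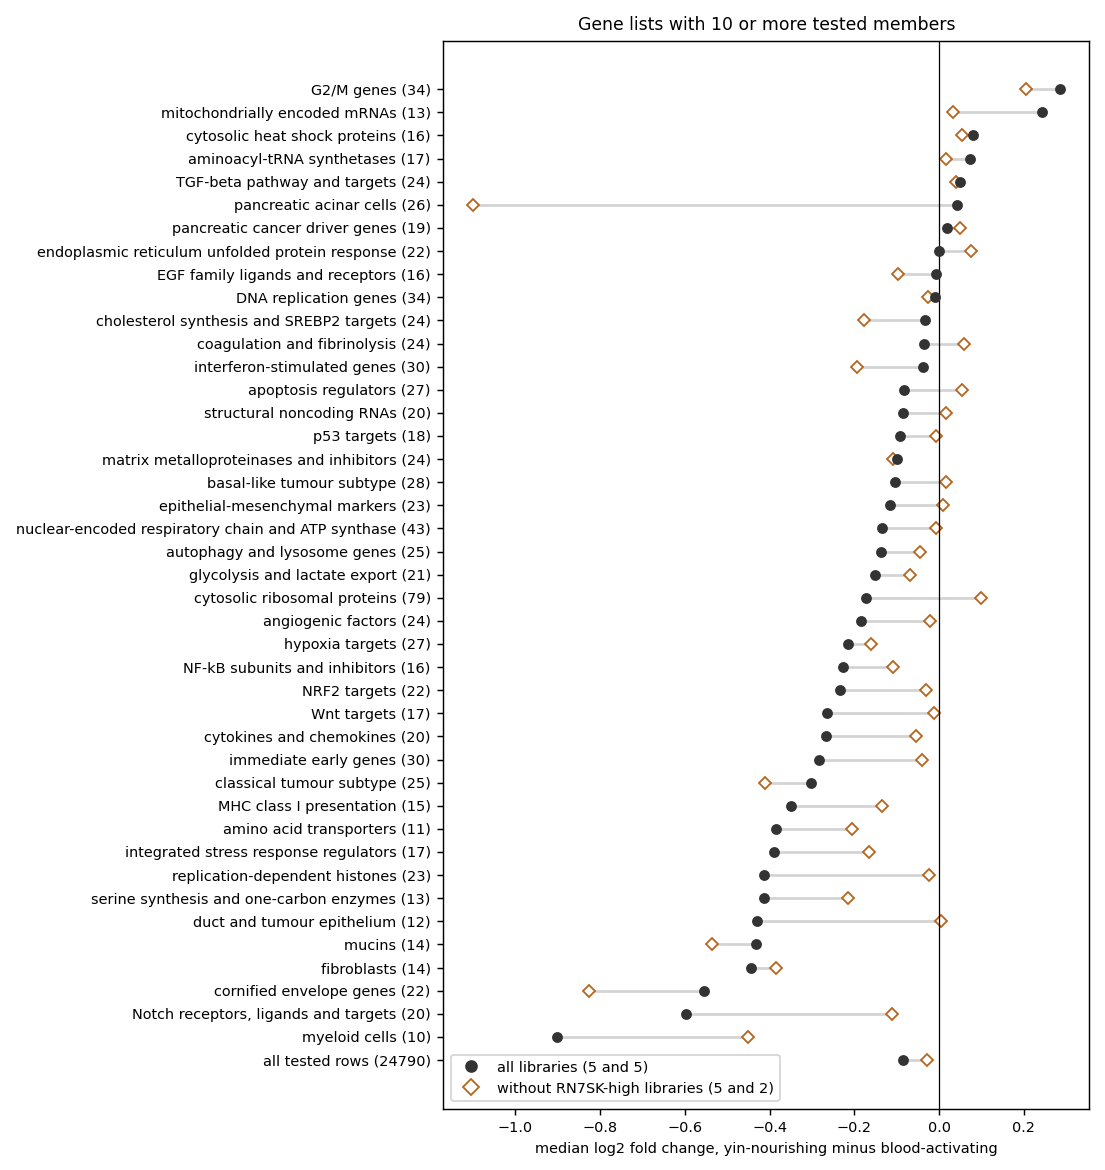
Median log2 fold change, yin-nourishing minus blood-activating, of each gene list with 10 or more tested members (number in brackets) and of all 24790 rows, with all libraries (filled circles) and without the 3 RN7SK-high blood-activating libraries (open diamonds). G2/M genes are at 0.29 with all libraries and 0.21 without the 3, the Notch list at -0.60 and -0.11, the cornified envelope list at -0.56 and -0.83, and the acinar list at 0.04 and -1.10.

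Markers of other cell types differed between libraries. In bulk RNA, fewer cells of a type and less RNA per cell cannot be told apart. The 26 pancreatic acinar genes, which encode digestive enzymes, summed to 3.64, 5.49, 4.12, 108.5 and 1139 CPM without TMM scaling in yin-nourishing, against 11.6, 84.2, 1052, 49.8 and 70.5 CPM in blood-activating. A single library of each treatment, yin-nourishing 10 and blood-activating 06, held most of these counts, and none of the 26 genes was at 0 in all 10 libraries. Their median fold change of 0.04 was -3.23 without yin-nourishing 10 and 2.17 without blood-activating 06. Myeloid markers summed to 77.5 to 130.9 CPM in yin-nourishing and 118.1 to 202.7 CPM in blood-activating, and 9 of 10 tested members were lower (median -0.90). In the fit without the RN7SK-high libraries 5 of 9 were lower (median -0.45), and with a term for them 6 of 10 (median -0.23). S100A9, a calprotectin subunit that myeloid cells and stressed epithelium both make, had 27.1, 14.5, 12.2, 28.1 and 15.2 CPM in yin-nourishing, against 51.3, 67.5, 32.9, 51.0 and 91.2 CPM in blood-activating, without overlap. Its partner S100A8 had 21.3, 19.7, 12.7, 44.0 and 15.5 CPM in yin-nourishing, against 48.7, 53.9, 21.5, 31.1 and 45.7 CPM in blood-activating. CD68, the myeloid marker with the highest mean level, differed little. It stood at 53.9 ± 7.60 CPM in yin-nourishing and 57.0 ± 12.3 CPM in blood-activating, a fold change of -0.08 (SE 0.139). The leukocyte gene PTPRC was at most 0.779 CPM in any of the 10 libraries.

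Fibroblast markers summed to 39.8 to 68.3 CPM in yin-nourishing and 45.0 to 102.8 CPM in blood-activating, and 9 of 14 were lower (median -0.44). Endothelial markers summed to 19.9 to 23.2 CPM in yin-nourishing and 20.4 to 40.1 CPM in blood-activating, with 6 of 8 tested members lower. Islet markers summed to 9.79 to 23.1 CPM in yin-nourishing and 7.28 to 24.8 CPM in blood-activating, with 4 of 6 lower, and lymphocyte markers to 25.7 to 31.8 CPM in yin-nourishing and 26.6 to 42.0 CPM in blood-activating, with 3 of 4 lower. The lymphocyte sum was mostly CD4, with a mean of 26.25 CPM without TMM scaling and a fold change of -0.03 (SE 0.142). Of 12 lymphocyte markers 4 were tested. Among the lymphocyte markers NKG7 and GNLY had no count in the 10 libraries, and among the skeletal muscle markers ACTA1 and MYH1 had none. Skeletal muscle markers, mostly TTN, summed to 13.4 to 20.04 CPM in yin-nourishing and 13.5 to 25.8 CPM in blood-activating, and adipocyte markers, mostly the widely expressed ADIPOR2, to 54.3 to 63.6 CPM in yin-nourishing and 38.2 to 65.4 CPM in blood-activating. Red blood cell genes summed to at most 0.156 CPM in yin-nourishing and 1.01 CPM in blood-activating. The part of these cell types in the gene differences was not tested.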

How the data were processed

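Total RNA was extracted with TRIzol, depleted of ribosomal RNA and made into libraries with a directional kit, per the labels' protocols. The submitters' processing notes name HISAT2, StringTie and hg38, with no versions; no source used here gives the annotation, the strand setting or any removal of mouse reads. Raw counts per gene, not normalised by the authors, were deposited in a table of 60656 rows (59609 distinct symbols, 1047 repeats, 12589 rows with no count).

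Counts were TMM-normalised and fitted with edgeR 4.0.16 in R 4.3.3 (robust quasi-likelihood test) over all 20 libraries in 4 groups of 5, leaving 16 residual degrees of freedom, and the contrast was yin-nourishing minus blood-activating. Rows kept by edgeR's default filter with a minimum count of 10 numbered 24790; Benjamini-Hochberg adjusted p-values were called at 0.05. DESeq2 1.42.0 and limma 3.58.1 (voom with quality weights) were alternatives, as were other normalisations and filters, a fit of the 10 libraries alone, the replicate number as a block, the title letter, the RN7SK-high libraries left out or given a term, and each library left out in turn. On simulated data of 23196 genes for this contrast, edgeR recovered 71 of 100 genes changed 2-fold and 97 of 100 changed 4-fold, with 3 false calls among 171. The simulation drew each gene independently, without the shifts shared between genes in the RN7SK-high libraries, and changed only genes above a set mean level. Its figures check the code and do not give the power or false calls of the real contrast. Within yin-nourishing and within blood-activating no libraries were duplicates, with a chi-square per gene of at least 81.8. Other pairs of libraries were not compared in this way.

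The lists and the way of choosing genes were set with earlier results of these data known. Named genes have a mean log2 CPM of 0 or more: in each direction the 8 with the lowest unadjusted p, and up to 4 members of each list in the direction in which more members lie. RN7SK and RPPH1 check the libraries. TTK, ECT2, TPX2, MT-TA, CHKB, RPS7, RPS26, HSP90AA1, ATP5F1B, COX7A2, NDUFV2, KRT5, KRT7, KRT19, EPCAM, SPRR1B, MUC5AC and PTPRC were added after their values were seen. Some genes are not reported here. Positions, overlaps and tRNA sequences are from GENCODE release 29 on hg38. Among other same-strand overlaps, ALDOC shares 4150 bases with AC005726.1, SRXN1 6745 with AL121758.1 and NDUFV2 31610 with AP005263.1. The division of reads between such genes is uncertain. Of the list symbols, 42 were matched through RefSeq synonyms. The precision of low counts is limited by counting error, and reads carry no molecular identifiers.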

Additional observations from a re-analysis of the deposited data

Results flagged for a closer look

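A library stood apart from the other 4 of its treatment in 15 of 220 sets of 5 values looked at, by the ratio of its gap to the range (Dixon's test at 95%); chance alone flags about 1 in 20 such sets. Yin-nourishing 10 was the highest of its treatment for CHKB-CPT1B (20.7 CPM), for RPS7P10 (6.75 CPM) and for the summed acinar markers (1139 CPM without TMM scaling). Yin-nourishing 04 was the highest for RELB (4.90 CPM) and yin-nourishing 05 for PLAU (43.5 CPM) and EPCAM (127 CPM). Yin-nourishing 07 was the highest for S100A8 (44.0 CPM) and the summed islet markers (23.1 CPM without TMM scaling) and the lowest for NFKB2 (8.41 CPM), and yin-nourishing 01 was the lowest for HSP90AB1 (992 CPM). Blood-activating 01 was the highest for PCK2 (7.48 CPM), HLA-B (256 CPM) and the summed endothelial markers (40.1 CPM without TMM scaling). Blood-activating 06 was the highest for the summed acinar markers (1052 CPM without TMM scaling), and blood-activating 08 was the lowest for NUSAP1 (56.8 CPM).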

How the results depend on the processing

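The count of genes called by edgeR, 0 with all libraries, was also 0 with RLE or upper quartile normalisation, with no filter or a strict filter, with the 10 libraries fitted alone, with the title letter as a covariate, without the RN7SK-high libraries, with a term for them, and at an absolute log2 fold change of at least 1. It was 1055 with DESeq2 and 4172 with limma voom. Leaving out 1 library at a time gave 0 to 361 genes: 361 without blood-activating 04, and 0 in each of the other 19 fits. With the replicate number as a block it was 1 over 20 libraries and 5 over the 10 alone. The treatments share numbers 01 and 04, whose samples deviated together with correlations of 0.04 and -0.07, so the numbers are not shown to pair the samples. The cause of these moves was not tested.

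Gene directions turned in a few cases. In the block fit of the 10 libraries alone the fold changes were 0.0823 for VEGFA, 0.1217 for SLC2A1, -0.0104 for HSP90AA1 and 0.0485 for KRT17. Without the RN7SK-high libraries they were 0.0011 for MUC1, -0.31 for MUC5AC, 0.0090 for CDH1 and 0.19 for KRT7, and with a term for those libraries -0.23 for MUC5AC, 0.0054 for CDH1 and 0.0789 for KRT7. The other 91 of 99 genes followed by name kept their direction in the alternatives run. Libraries held at least 83.3 M counts; genes under 1 CPM, such as CPT1B in yin-nourishing, rest on few counts.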
